A study of Mus musculus with 6 samples.

Results

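The genes described here are Trp53, its regulators Mdm2 and Mdm4, and 7 genes known as p53 or DNA damage targets: Gadd45a, Gadd45b, Gadd45g, Sesn1, Polk, Xpc and Ddb2. They were taken by symbol, and all 10 were found among the 54100 genes of the count table and passed the filter on low counts, as did 17038 genes in all. Libraries for bulk RNA-seq came from cryosections of mouse testis, 3 of wild-type animals (WT) and 3 of animals lacking H3t, a testis histone H3 variant, whose spermatogenesis is disrupted. Each title carries a mouse number of its own. The labels used here name no age or strain, nor how H3t was deleted. Bulk RNA cannot tell fewer cells of a type from less RNA per cell.

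p53 is a transcription factor that is kept low in unstressed cells. MDM2 is a ubiquitin ligase that marks p53 for breakdown, and MDM4 is a related protein that binds p53, masks its activation domain and pairs with MDM2. Mdm2 is itself a p53 target, so the pair forms a negative feedback loop. After DNA damage p53 is stabilised and turns on genes for arrest, death and repair, among them some of the genes described here. In the testis, germ cells pass through programmed DNA breaks during meiosis, and p53 is known to take part in the quality control of spermatogenic cells.

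The libraries held 8037826 to 10702930 counts. The targeted gene, H3f4 (the current symbol of H3t), gave 390, 571 and 356 counts across the WT libraries and 0 in each deletion library. Levels are given as CPM, counts relative to the library total, adjusted by TMM, which sets a scaling factor for each library on the assumption that most genes do not change. The groups were compared with edgeR's quasi-likelihood test, with p-values adjusted by the Benjamini-Hochberg method over all genes tested. Of the 17038 genes, 6542 were called higher and 7861 lower in the deletion, so 45.4% of calls were higher. That split was 55.1% with upper-quartile scaling and 56.6% with no scaling factor. Over all genes the median log2 fold change stood at -0.19 under TMM and at -0.36 under median of ratios, whereas upper-quartile scaling put it at 0.35 and leaving the factor out at 0.45. Mitochondrial counts made up 5.59% to 6.44% of WT and 21.6% to 22.7% of deletion libraries. The nuclear RNA Malat1 took 0.201% to 0.211% of counts in WT and 2.46%, 2.44% and 1.49% in deletion replicates 1, 2 and 3, of which replicate 3 stood apart. The part of these shares in the results was not tested.

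Cell type markers moved with genotype. All 12 spermatid and all 12 spermatocyte markers fell, and their summed levels went from 21882.6 to 23590.7 CPM in WT down to 10.7 to 70.9 CPM for spermatids, and from 7932 to 8510.3 CPM down to 454 to 536 CPM for spermatocytes. All 17 Sertoli markers rose, from a sum of 887 to 990 CPM to one of 4473.3 to 4538.8 CPM, as did all 10 Leydig markers, from 761 to 826 CPM to 6645.9 to 7254.9 CPM. All 12 macrophage markers rose too (113 to 123 CPM in WT, 563 to 654 CPM in the deletion). Of the spermatogonial markers 7 of 9 tested rose and 1 fell (182 to 214 CPM against 489 to 543 CPM), and 5 of 6 myoid (264 to 291 against 653 to 706 CPM) and 5 of 6 endothelial markers (37.1 to 41.1 against 84.6 to 94.3 CPM) rose. Over all genes 38.4% were called higher and 46.1% lower. No marker was at 0 in every library of a group. However, 3 Sertoli, 3 macrophage and 1 endothelial marker did not reach the filter's minimum in every WT library. These passed with the help of deletion libraries, an entry that favours genes high in the deletion. The part of these cell types in the results below was not tested.

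Of the 10 genes, 7 rose and 3 fell in the deletion. Trp53, Gadd45a, Gadd45b, Gadd45g, Sesn1, Xpc and Ddb2 were higher, while Mdm2, Mdm4 and Polk were lower. By the same test 84.5% of all genes were called, 38.4% as higher and 46.1% as lower, so a call by itself sets these genes apart from few others. Their median log2 fold change was 1.43. The groups did not overlap for any of the 10, as was so for 85.9% of all genes (39.2% higher in the deletion and 46.7% lower), and the direction held under every scaling, filter, tool and left-out library tried here.

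**Figure D1:**
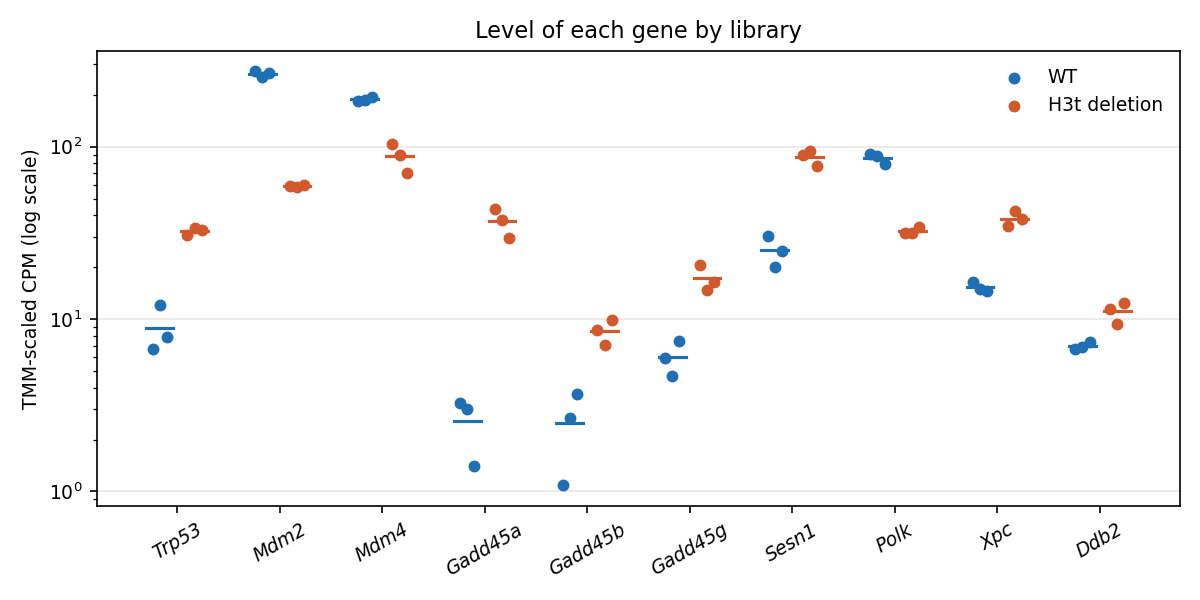
Each point is 1 library and each bar a group mean of 3 libraries, in TMM-scaled CPM on a log axis, with WT in blue and the H3t deletion in orange. Mdm2 lies at 252 to 273 CPM in WT and 58.3 to 59.7 CPM in the deletion, while Trp53 lies at 6.69 to 12.0 CPM in WT and 30.6 to 33.6 CPM in the deletion.

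Trp53 (ENSMUSG00000059552; GRCm38 chromosome 11, 69580359 to 69591873, plus strand) encodes p53. Its level was 6.69, 12.0 and 7.89 CPM in WT replicates 1, 2 and 3 and 30.6, 33.6 and 32.9 CPM in deletion replicates 1, 2 and 3. The deletion libraries lay close together and well above WT, in which replicate 2 was the highest. These levels rest on 43, 103 and 56 counts in WT and 332, 371 and 345 in the deletion. The means were 8.85 ± 2.77 and 32.3 ± 1.56 CPM (SD, n = 3), a log2 fold change of 1.85 with a standard error of 0.20, or 3.6-fold (adjusted p = 4.07e-07, edgeR). Of the 50-base words in its transcripts 3.88% occur in other genes, mainly the pseudogene Trp53-ps, which had 0 counts in 5 libraries and 1 in deletion replicate 3.

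Mdm2 (ENSMUSG00000020184; chromosome 10, 117688875 to 117710758, minus strand) moved the other way. Its level was 273, 252 and 266 CPM in WT replicates 1, 2 and 3 and 59.1, 58.3 and 59.7 CPM in the deletion. Libraries of a group differed little, and the groups lay far apart. The fall was 2.16 on the log2 scale with a standard error of 0.09, or 4.46-fold (adjusted p = 2.23e-12, edgeR). It was -1.62 with upper-quartile scaling and -1.52 with no scaling factor.

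Mdm4 (ENSMUSG00000054387; chromosome 1, 132959484 to 133030561, minus strand) fell less. It stood at 184, 187 and 194 CPM in WT and 104, 89.8 and 70.2 CPM in deletion replicates 1, 2 and 3, where the deletion libraries were the more spread out. The log2 fold change was -1.10 with a standard error of 0.12 (adjusted p = 4.55e-07, edgeR). It shrank to -0.56 with upper-quartile scaling and to -0.46 with no scaling factor, with adjusted p-values of 0.000218 and 0.00112. Of the 50-base words of Mdm4, 7.3% occur in other genes, mainly Mdm4-ps. That pseudogene had 335, 369 and 280 counts in WT and 2, 5 and 7 in the deletion, against 1182, 1609 and 1379 and 1132, 993 and 736 counts for Mdm4. The effect of reads placed on the wrong copy was not tested.

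Ratios within a library need no scaling factor. For every Trp53 count there were 40.7, 21.0 and 33.8 Mdm2 counts in WT replicates 1, 2 and 3 and 1.93, 1.74 and 1.81 in the deletion. The log2 ratio went from 4.93 ± 0.49 to 0.87 ± 0.08 (SD, n = 3), a 16.7-fold drop. For Mdm4 the counts per Trp53 count were 27.5, 15.6 and 24.6 in WT and 3.41, 2.68 and 2.13 in the deletion, an 8.1-fold drop. The ratio of Mdm2 to Mdm4 was lower in every deletion library, going from 1.48, 1.35 and 1.37 Mdm2 counts per Mdm4 count in WT to 0.567, 0.65 and 0.851 in the deletion. Per kilobase of exon Mdm2 stayed above Mdm4 in both groups, at 51.9 against 12.7 CPM in WT and 11.6 against 5.95 CPM in the deletion. Each of these 3 ratios separated the groups without overlap, and each reached 0.1 by an exact permutation test (two-sided), which is as low as 3 against 3 libraries can go, or 0.144 adjusted over the 13 ratios computed. Count ratios are between genes of unequal length, so only their change is read here.

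**Figure D2:**
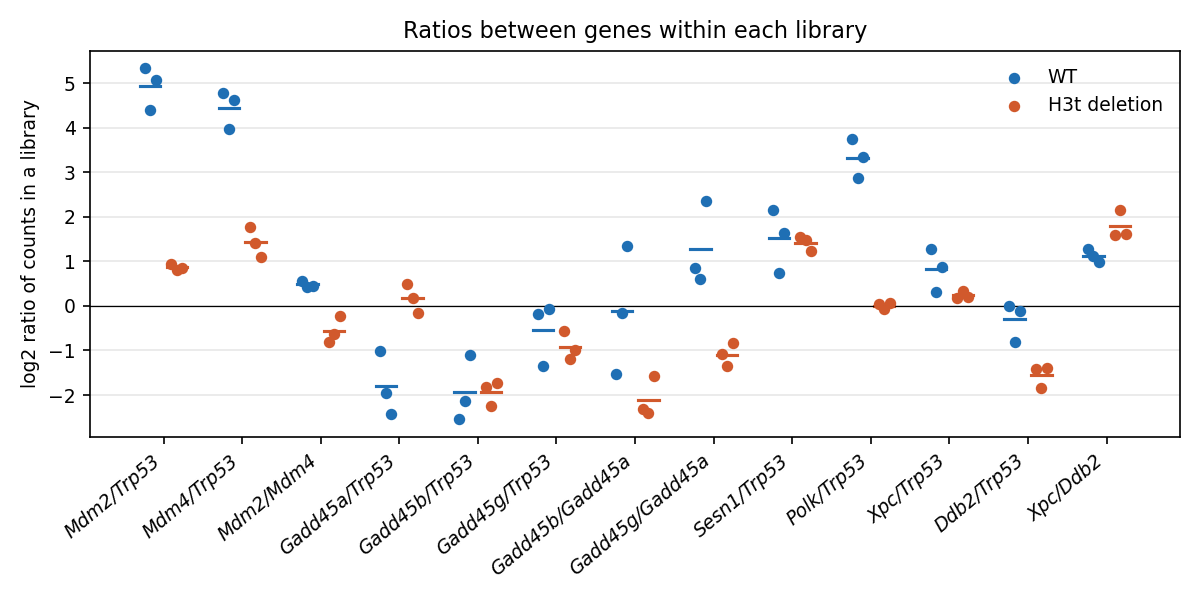
Each point is the log2 ratio of the counts of 2 genes in 1 library, with a prior count of 0.5, and each bar is a mean of 3 libraries, WT in blue and H3t deletion in orange. The ratio of Mdm2 to Trp53 lies at 4.39 to 5.33 in WT but only 0.8 to 0.95 in the deletion, while that of Gadd45b to Trp53 overlaps between the groups.

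The sequences before the starts of Mdm2 and Trp53 are shown because p53 acts on DNA through a consensus of paired decamers, and these genes moved in opposite directions. In the RefSeq promoter table (GRCm38.p6), 8 of the 10 genes had entries, with 11 start sites in all. The 250 bases before each start were searched on both strands for the p53 consensus decamer without mismatch, and 5 of the 11 windows held it, against 7.13% of 32851 windows of all genes. Those were windows of Gadd45a, Mdm2, Polk, Sesn1 and Trp53, which include genes that rose and genes that fell. Each of them held 1 decamer, so none held a pair without mismatch. Bases after the starts, such as introns, were not searched. Capitals mark the decamer, which starts 186 bases before the Mdm2 start and 75 bases before that of Trp53. The stretches run 5′ to 3′ on the gene's strand, chr10:117710759-117711008 (minus) for Mdm2 and chr11:69580256-69580358 (plus) for Trp53, the latter limited to the bases between Trp53 and its neighbour Wrap53. A match describes these letters only and is no evidence of binding.
Mdm2: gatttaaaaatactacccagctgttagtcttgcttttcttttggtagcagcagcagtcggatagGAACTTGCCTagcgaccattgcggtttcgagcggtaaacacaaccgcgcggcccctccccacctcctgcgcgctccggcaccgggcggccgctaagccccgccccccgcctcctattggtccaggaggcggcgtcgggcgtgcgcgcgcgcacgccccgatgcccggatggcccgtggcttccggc
Trp53: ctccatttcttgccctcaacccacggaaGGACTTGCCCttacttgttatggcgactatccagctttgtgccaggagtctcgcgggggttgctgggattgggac

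The GADD45 genes encode small acidic stress proteins that bind kinases and repair factors. Gadd45a, known as a direct p53 target, had the largest fold change of the 10 genes. Gadd45a (ENSMUSG00000036390; chromosome 6, 67035096 to 67037457, minus strand) stood at 3.27, 3.02 and 1.41 CPM in WT, from 21, 26 and 10 counts, and at 43.4, 37.7 and 29.5 CPM in deletion replicates 1, 2 and 3. The lowest deletion library lay far above the highest WT library. The log2 fold change was 3.83 with a standard error of 0.26, or 14.3-fold (adjusted p = 1.35e-09, edgeR). The antisense noncoding gene E230016M11Rik covers 337 of its exon bases and had 1, 1 and 0 counts in WT and 17, 30 and 10 in the deletion.

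Gadd45b (ENSMUSG00000015312; chromosome 10, 80930073 to 80932204, plus strand) is a relative known for rapid induction by cytokines and NF-kB. It stood at 1.09, 2.67 and 3.67 CPM in WT, from 7, 23 and 26 counts, and at 8.66, 7.05 and 9.91 CPM in the deletion. Relative to its mean, no other of the 10 genes was as scattered in WT, and replicate 1 was the lowest. The log2 fold change was 1.76 with a standard error of 0.36 (adjusted p = 0.000341, edgeR). Gadd45a and Gadd45b did not reach the filter's minimum in every WT library, so they were tested because of their deletion libraries, whereas the other 8 genes reached it in all WT libraries.

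Gadd45g (ENSMUSG00000021453; chromosome 13, 51846678 to 51848468, plus strand) was the most abundant of the 3 in WT per kilobase of exon, at 5.13 CPM against 1.56 for Gadd45b and 1.46 for Gadd45a. It stood at 5.92, 4.65 and 7.47 CPM in WT and at 20.5, 14.7 and 16.4 CPM in the deletion. The log2 fold change was 1.53 with a standard error of 0.23 (adjusted p = 1.91e-05, edgeR). The groups did not overlap, and replicate 2 was the lowest in both. Within libraries the 3 relatives changed in their proportions. There were 1.81, 1.54 and 5.3 Gadd45g counts per Gadd45a count in WT and 0.473, 0.391 and 0.557 in the deletion. Per Gadd45a count there were 0.333, 0.885 and 2.6 Gadd45b counts in WT and 0.2, 0.187 and 0.337 in the deletion. Neither ratio overlapped between the groups, with mean log2 shifts of -2.36 and -1.98 (p = 0.1 each by the exact permutation test, 0.144 adjusted). The shift of Gadd45b against Gadd45a was -1.25 without WT replicate 3 and -2.68 without WT replicate 1.

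The start regions of Gadd45b and Gadd45g are shown because these relatives share letters there that Gadd45a lacks. Within 250 bases before the start, Gadd45b and Gadd45g each held the E-box CACGTG, which occurs in 6.02% of all windows, and the TATA sequence TATAAA, which occurs in 12.4% (either strand, RefSeq, GRCm38.p6). TATAAA starts 46 bases before the Gadd45b start and 27 before that of Gadd45g, and CACGTG 185 and 142 bases before. The window of Gadd45a held neither, but held the p53 decamer 40 bases before its RefSeq start, which the other 2 lacked. Capitals mark CACGTG and TATAAA in chr10:80929841-80930072 (plus, Gadd45b) and chr13:51846425-51846674 (plus, Gadd45g).
Gadd45b: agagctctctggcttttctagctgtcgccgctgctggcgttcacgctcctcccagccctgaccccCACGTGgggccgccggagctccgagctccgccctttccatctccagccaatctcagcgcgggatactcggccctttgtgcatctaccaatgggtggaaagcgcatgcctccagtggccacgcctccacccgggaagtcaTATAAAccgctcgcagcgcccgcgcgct
Gadd45g: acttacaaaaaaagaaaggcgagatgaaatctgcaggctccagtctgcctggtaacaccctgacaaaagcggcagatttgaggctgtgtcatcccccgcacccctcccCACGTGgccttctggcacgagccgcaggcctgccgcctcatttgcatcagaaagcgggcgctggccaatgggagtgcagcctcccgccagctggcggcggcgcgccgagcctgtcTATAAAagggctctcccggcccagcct

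Sesn1 (ENSMUSG00000038332; chromosome 10, 41809935 to 41908424, plus strand) encodes a sestrin, a p53-inducible protein that restrains the growth kinase mTORC1 and limits oxidative stress. It stood at 30.2, 20.1 and 24.8 CPM in WT and 89.2, 93.8 and 77.0 CPM in the deletion. The lowest deletion library lay well above the highest WT library, which was replicate 1. Sesn1 rose by 1.80 on the log2 scale with a standard error of 0.14, or 3.49-fold (adjusted p = 9.84e-09, edgeR). Per Trp53 count there were 4.51, 1.68 and 3.14 Sesn1 counts in WT and 2.92, 2.8 and 2.34 in the deletion, values that overlapped (exact two-sided permutation p = 0.8, 0.867 adjusted). The WT ratios were scattered, and a p of this size does not show that the genes moved alike. The ratios of Gadd45b, Gadd45g and Xpc to Trp53 overlapped between the groups too, with mean log2 shifts of 0.0, -0.38 and -0.58 (exact two-sided permutation p = 1, 0.4 and 0.2), while that of Gadd45a shifted by 1.97 and that of Ddb2 shifted by -1.25 without overlap (p = 0.1 each, 0.144 adjusted).

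Polk (ENSMUSG00000021668; chromosome 13, 96480690 to 96542579, minus strand) encodes DNA polymerase kappa, which copies past bulky lesions, and is described as a p53 target in the mouse. It stood at 90.4, 88.2 and 79.8 CPM in WT and 31.4, 31.7 and 34.3 CPM in the deletion, with little spread in either group. Polk changed by -1.41 on the log2 scale with a standard error of 0.11 (adjusted p = 5.99e-09, edgeR). The fall was -0.87 with upper-quartile scaling and -0.77 with no scaling factor. Polk counts per Trp53 count went from 13.5, 7.37 and 10.1 in WT to 1.03, 0.943 and 1.04 in the deletion (p = 0.1 by the exact permutation test, 0.144 adjusted).

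Xpc and Ddb2 encode damage sensors of global nucleotide excision repair, of which DDB2 finds ultraviolet lesions. Xpc (ENSMUSG00000030094; chromosome 6, 91489305 to 91515888, minus strand) stood at 16.3, 14.9 and 14.5 CPM in WT and 34.7, 42.2 and 37.9 CPM in the deletion. Xpc rose by 1.33 on the log2 scale with a standard error of 0.15 (adjusted p = 6.14e-07, edgeR). Ddb2 (ENSMUSG00000002109; chromosome 2, 91211572 to 91236982, minus strand) stood at 6.69, 6.86 and 7.33 CPM in WT and 11.5, 9.41 and 12.4 CPM in the deletion. That gap was the smallest of the 10 genes, with a log2 fold change of 0.67 and a standard error of 0.23 (adjusted p = 0.0123, edgeR). The call of Ddb2 was lost with median of ratios scaling (0.50, adjusted p = 0.0523) and with DESeq2 (0.52, adjusted p = 0.111), within a range of adjusted p-values of 4.82e-05 to 0.111 over all alternatives. The gene Acp2 on the other strand covers 652 of the 2736 exon bases of Ddb2 and had 142, 161 and 176 counts in WT and 330, 329 and 313 in the deletion, and the strand setting of the counting is not given. Xpc counts per Ddb2 count were 2.44, 2.17 and 1.98 in WT and 3.02, 4.49 and 3.06 in the deletion (p = 0.1 by the exact permutation test, 0.144 adjusted).

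The order of levels changed with genotype. Per kilobase of annotated exon, Mdm2 led in WT at 51.9 ± 2.08 TMM-scaled CPM (SD, n = 3), followed by Polk at 15.5 ± 1.01 and Mdm4 at 12.7 ± 0.361, with no overlap between neighbours. Sesn1 at 6.29 and Gadd45g at 5.13 overlapped, and below them Xpc, Ddb2, Trp53, Gadd45b and Gadd45a lay between 2.78 and 1.46, each overlapping its neighbour. In the deletion Sesn1 at 21.8 ± 2.17, Gadd45a at 20.9 ± 3.97 and Gadd45g at 14.7 ± 2.55 stood highest, each overlapping the next, and Mdm2 followed at 11.6 ± 0.133 and Trp53 at 7.99 ± 0.386. Xpc at 6.97, Mdm4 at 5.95, Polk at 5.85, Gadd45b at 5.38 and Ddb2 at 4.06 formed a run in which each overlapped its neighbour. Exon lengths cover all annotated transcripts, so a gene expressed from a short transcript is placed too low.

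Levels were also set against somatic markers of the same library, as the log2 CPM of a gene minus the mean log2 CPM of a marker list. Against the 17 Sertoli markers only Gadd45a was higher in the deletion, and 9 genes were lower, 6 of them without overlap. These markers rose by a median of 2.3 with TMM, against -0.19 for all genes. A gene with the median change is thus lower by this measure too, and the share of all genes that were lower was not computed. Gadd45a went from -2.43 ± 0.68 to -0.95 ± 0.32 (SD, n = 3), a shift of 1.48. Trp53 shifted by -0.50, from -0.63 ± 0.23 to -1.13 ± 0.01, and Mdm2 by -4.56, from 4.30 ± 0.26 to -0.26 ± 0.08. Mdm4, Polk, Xpc and Ddb2 shifted by -3.51, -3.80, -1.08 and -1.74, also without overlap. Gadd45b, Gadd45g and Sesn1 shifted by -0.50, -0.88 and -0.59, with overlapping groups. Trp53, Gadd45b, Gadd45g, Sesn1, Xpc and Ddb2, called higher with TMM, rose by less than the median Sertoli marker. Their negative shifts restate this and are no separate test of the calls.

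Against the 10 Leydig markers, 9 genes were lower in the deletion, all without overlap, and Gadd45a went from -3.98 ± 0.68 to -3.31 ± 0.32 (SD, n = 3), with overlapping groups. The Leydig markers rose by a median of 3.18 with TMM, so a gene with the median change of all genes, -0.19, is lower here too. The share of all genes that were lower was again not computed. Trp53 shifted by -1.30 and Mdm2 by -5.36. The median shift of the 10 genes was -0.98 against Sertoli and -1.78 against Leydig markers. For shifts without overlap the permutation p (exact, two-sided) was 0.1, which is the lowest this design gives. After adjustment over the 20 such shifts computed it was 0.125.

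**Figure D3:**
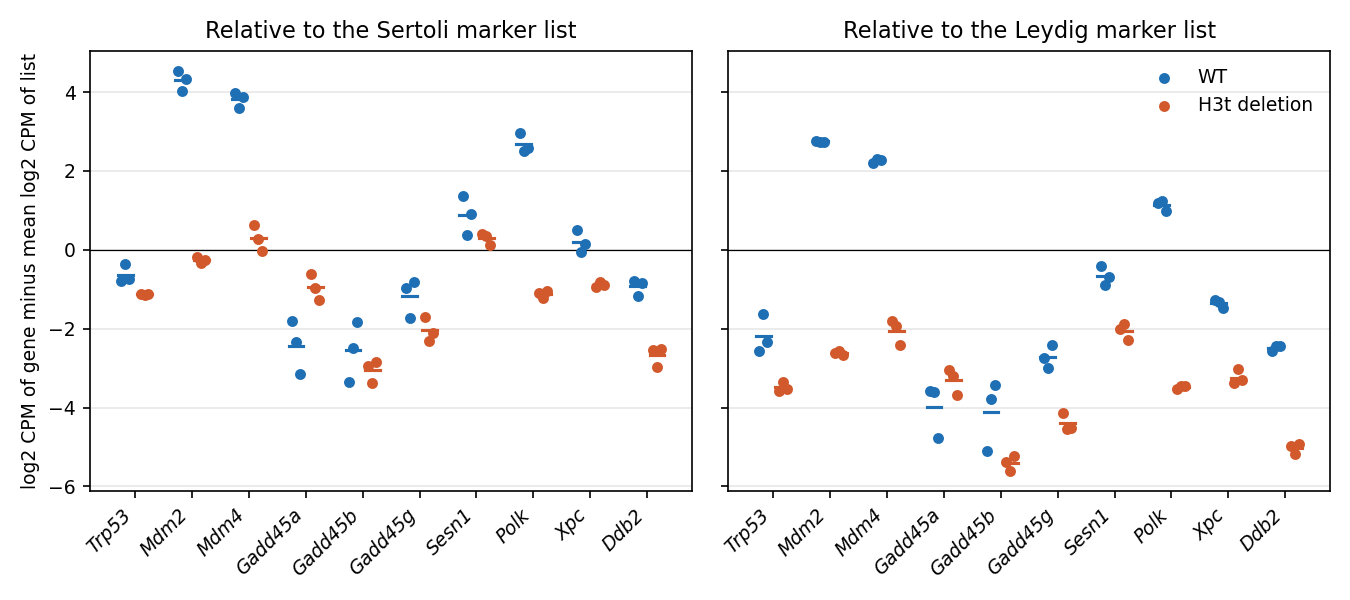
Each point is the log2 CPM of a gene minus the mean log2 CPM of the Sertoli (left) or Leydig (right) marker list in 1 library, and each bar is a mean of 3 libraries, WT in blue and H3t deletion in orange. Gadd45a lies above its WT values against Sertoli markers, by 1.48 on average, and the shift of Mdm2 is -4.56.

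Other p53 targets mostly rose with TMM scaling. Of 40 listed genes 37 were tested, 25 rose, 4 fell and 8 were not called, so 67.6% were higher and 10.8% lower against 38.4% and 46.1% of all genes. The median log2 fold change was 1.24. With upper-quartile scaling 73.0% were higher and 8.11% lower, against 47.6% and 38.8% of all genes. Without a scaling factor 78.4% were higher and 2.7% lower, against 49.2% and 37.7% of all genes. Among those tested, 11 did not reach the filter's minimum in every WT library, so they passed it with the help of deletion libraries. Such entry favours genes that are high in the deletion. All of these shares and the median include these genes, and no value without them was computed. The classical arrest gene Cdkn1a (p21) was low, at 2.35 ± 1.58 CPM in WT and 6.42 CPM in the deletion, and rose by 1.43. It had 5, 20 and 28 counts in WT replicates 1, 2 and 3, below the filter's minimum in replicate 1. Ccng1 (cyclin G1) rose from 14.2 ± 2.56 to 75.0 CPM, a log2 fold change of 2.41 (adjusted p = 4.95e-10, edgeR). Fdxr, the ferredoxin reductase of mitochondria, rose by 2.84 and Trp53inp1 by 1.60. Phlda3, an inhibitor of AKT, rose by 3.10 with a standard error of 0.5. It had 5, 7 and 4 counts in WT, all below the filter's minimum, and 58, 39 and 105 in the deletion. The death genes Bax and Bbc3 (Puma) rested on few counts, 7 to 42 for Bax and 3 to 26 for Bbc3. Neither gene reached the filter's minimum in every WT library, so both passed with the help of deletion libraries. Bax was at 1.09, 2.56 and 1.13 CPM in WT and 3.87, 2.98 and 3.15 CPM in the deletion (log2 fold change 1.03, adjusted p = 0.0425, edgeR), and Bbc3 at 0.467, 1.05 and 1.13 against 2.03, 1.9 and 2.48 CPM (1.24, adjusted p = 0.0287).

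Both death gene calls were lost when most single libraries were left out, in some cases at a higher log2 fold change than with all libraries. The call of Bax was lost without WT replicate 1 or 3 or without any 1 deletion replicate, at log2 fold changes of 0.79, 0.78, 0.92, 1.11 and 1.07, and that of Bbc3 without WT replicate 1 or 2 or any 1 deletion replicate, at 0.94, 1.38, 1.29, 1.33 and 1.13. Without WT replicate 2, Bax was at 1.56. Bax and Bbc3 were not called with DESeq2 or median of ratios scaling, and Bbc3 was not called without the filter. Adjusted p-values over all alternatives ran from 0.00241 to 0.173 for Bax and from 0.0021 to 0.166 for Bbc3. Pmaip1 (Noxa) was not called, at 5.77 ± 0.75 CPM in WT and a log2 fold change of -0.45 (adjusted p = 0.17, edgeR).

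The 4 targets that fell were Ppm1d, Polh, Ckap2 and Gtse1, the last of which was named after its value was seen. Ppm1d encodes the phosphatase WIP1, which, like MDM2, is a p53 target that damps p53 signalling. It stood at 364, 342 and 301 CPM in WT and 17.2, 23.3 and 27.2 CPM in the deletion, a log2 fold change of -3.89 with a standard error of 0.14 (adjusted p = 5.82e-13, edgeR). No library of either group came near the other group. Ckap2 and Gtse1, genes of the mitotic spindle, were at -0.96 and -0.66. With no scaling factor Ppm1d was the only target still called lower, and Polh, Ckap2 and Gtse1 were at -0.46, -0.32 and -0.02.

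Of 27 listed regulators of p53, 26 were tested, 9 rose, 11 fell and 6 were not called, with a median of -0.06. These shares, 34.6% higher and 42.3% lower, lay near the 38.4% and 46.1% of all genes. With no scaling factor 14 were higher and 7 lower, or 53.8% and 26.9% against 49.2% and 37.7% of all genes. Usp7, which removes ubiquitin from MDM2 and p53, fell by 1.57, from 672 ± 39.3 to 226 CPM, and the damage kinase Atr fell by 2.33. The HECT ligase Huwe1 rose by 1.38 and the acetyltransferase Crebbp by 0.59. Cdkn2a, whose ARF product holds MDM2 away from p53, was at 2.18, 3.84 and 3.24 CPM in WT and 8.47, 7.05 and 7.24 CPM in the deletion, a rise of 1.28 (adjusted p = 0.00122, edgeR).

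Of 31 other listed nucleotide excision repair genes, all tested, 3 rose, 17 fell and 11 were not called, with a median of -0.48. With TMM 9.68% were thus higher and 54.8% lower, against 38.4% and 46.1% of all genes. With no scaling factor 14 were higher and 11 lower, and these shares of 45.2% and 35.5% lay near the 49.2% and 37.7% of all genes. Those that rose with TMM, beside Xpc and Ddb2, were Ercc6, which couples repair to transcription, at 0.89, Gtf2h5 at 1.36 and Cetn2, a partner of XPC named after its value was seen, at 1.07. Ddb1, the partner of DDB2, was at 279, 325 and 296 CPM in WT and 249, 240 and 246 CPM in the deletion, a log2 fold change of -0.29 that turned to 0.25 (upper-quartile) and 0.35 (no scaling factor). Lig3, a DNA ligase with exons that overlap Rffl on the other strand, fell by 3.20.

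Of 12 other listed translesion synthesis genes, all tested, 0 rose and 10 fell by edgeR's test, with a median of -1.17. The share that fell, like Polk, was 83.3%, against 46.1% of all genes. The count of higher genes was also 0 at an unadjusted p under 0.05 and by DESeq2. Under upper-quartile scaling 3 rose and 9 fell, or 25.0% and 75.0% against 47.6% and 38.8% of all genes. Without a scaling factor 3 rose and 8 fell, or 25.0% and 66.7% against 49.2% and 37.7% of all genes. Of those that fell, the most abundant on average were Usp1 at -4.06 and its partner Wdr48 at -3.44, which remove ubiquitin from PCNA. For Usp1, 21.4% of its 50-base words occur in other genes. Polh, the polymerase eta gene and a p53 target too, went from 22.1, 16.6 and 22.3 CPM in WT to 9.03, 11.9 and 7.24 CPM, a log2 fold change of -1.10 (adjusted p = 0.000207, edgeR). Ube2a and Primpol, named after their values were seen, were not called, at 0.01 and 0.33.

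Of 12 listed GADD45 partners and kinases downstream of them 10 were tested, 5 rose, 4 fell and 1 was not called, with a median of 0.92. These shares of 50% higher and 40% lower lay near the 38.4% and 46.1% of all genes. Map3k4, the kinase that GADD45 proteins bind and activate, rose by 1.34, and Mapk9 rose by 1.02, as did Map2k4, Mapk14 and Gadd45gip1, named after their values were seen, at 2.03, 1.53 and 1.02. Map2k7, which GADD45B inhibits, fell by 3.13, though 32.8% of its 50-base words occur in other genes. Mapk10 and Map2k3, also named after their values were seen, were at -4.23 and -0.59, the latter at 0.05 with no scaling factor. Mapk8 was at -0.47, and at 0.08 and 0.17 with upper-quartile and no scaling.

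The other sestrin genes changed in opposite directions. Sesn2 stood at 14.3, 13.7 and 13.7 CPM in WT and 44.9, 50.4 and 55.5 CPM in the deletion, a log2 fold change of 1.85 (adjusted p = 7.19e-09, edgeR), next to 1.80 for Sesn1. Sesn3, which FoxO factors rather than p53 are known to induce, went from 118, 111 and 137 CPM to 57.2, 61.8 and 70.1 CPM, at -0.95 (adjusted p = 8.97e-07, edgeR). Of 14 sestrin, GATOR, AMPK and TSC genes, which include Sesn2 and Sesn3, 5 rose and 9 fell, with a median of -0.41. The share that rose, 35.7%, lay near the 38.4% of all genes, and the share that fell was 64.3% against 46.1%. With no scaling factor 7 rose and 3 fell, or 50% and 21.4% against 49.2% and 37.7% of all genes. Tsc2 rose by 0.78, and Wdr59, Seh1l and Prkaa2, named after their values were seen, by 1.01, 1.15 and 2.50. Prkaa2 had 15, 7 and 18 counts in WT replicates 1, 2 and 3. It did not reach the filter's minimum in every WT library and passed with the help of deletion libraries. Tsc1 was at -0.35, and at 0.19 and 0.29 with upper-quartile and no scaling.

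**Figure D4:**
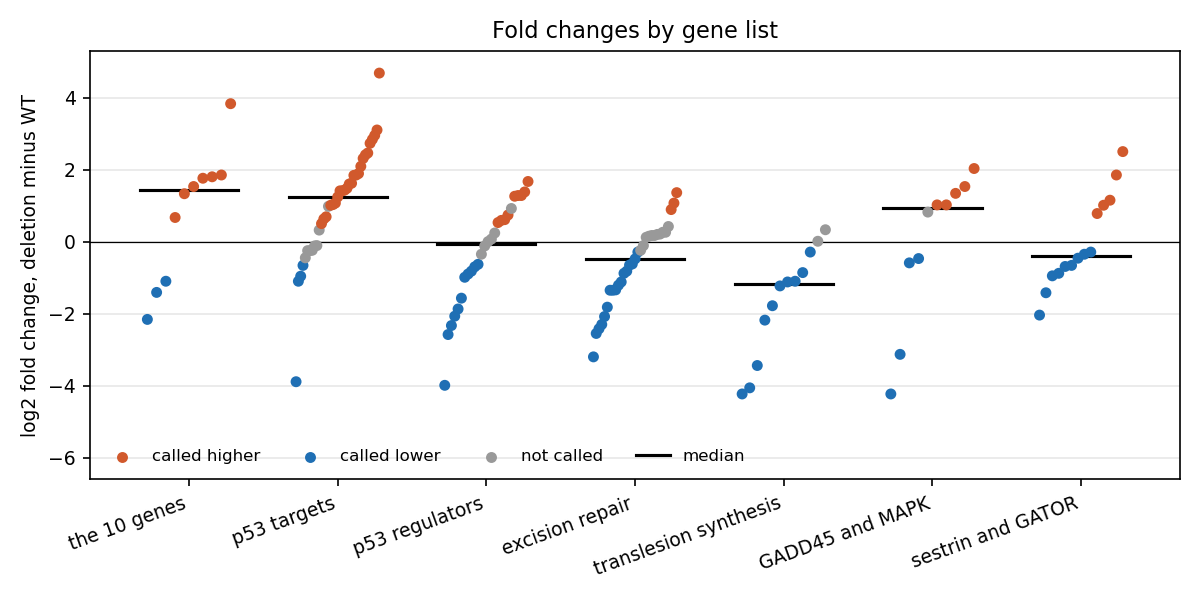
Each point is the log2 fold change of 1 tested gene with TMM scaling, ordered within its list, in orange where called higher, blue where called lower and grey where not called, and black bars are list medians. The p53 target list has a median of 1.24, while that of translesion synthesis is -1.17 with no gene called higher.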

How the data were processed

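Libraries were made from total RNA of testis sections with a stranded kit, per the labels' protocols. The values are raw read counts per gene, deposited by the authors as 1 table. The submitters' processing notes name Trim Galore, HISAT2, featureCounts and GRCm38 without versions. Neither the gene annotation used nor how strand was treated in counting is given in the sources used here. All 54100 gene identifiers were found in GENCODE M21. Genes were filtered with filterByExpr (minimum count 10), scaled by TMM and tested in edgeR 4.0.16 (R 4.3.3) with its quasi-likelihood test, deletion against WT, at a false discovery rate of 0.05 with Benjamini-Hochberg adjustment over 17038 genes. The standard error is the log2 fold change divided by the root of F. Within-library log2 ratios used a prior count of 0.5 and exact permutation tests, which with 3 against 3 libraries cannot go below 0.1.

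Library totals were 8037826 to 10702930 counts, and 1 count was worth 0.0904 to 0.156 CPM. Pairs of libraries of 1 group differed by more than sampling noise (chi-square per degree of freedom 4.75 to 7.32). The titles number the mice, but nothing else says how the animals were sampled, so p-values measure only the spread between these libraries. On simulated data drawn from the WT profile, the test recovered 26.9% of genes changed 1.5-fold, 78.5% of those changed 2-fold and 98.5% of those changed 4-fold. It made 15 false calls among 16108 genes. Only a small share of genes was changed there, in both directions and at a single fixed dispersion. In the data 84.5% of genes were called, so these rates do not describe this comparison.

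The genes, lists and comparisons were chosen with earlier results of these data known. Beside the 10 genes, the text names 13 preset genes, H3f4, and from each of 6 pathway lists the 2 called genes of highest mean CPM in each direction. Genes named after their values were seen are marked so. Alternatives were other scalings, no filter, DESeq2 1.42.0, a false discovery rate of 0.01, another prior count, the list median, and each library left out.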

Additional observations from a re-analysis of the deposited data

How the results depend on the processing

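With no scaling factor, 29 of the 37 p53 targets tested were called higher and 1 was called lower. These shares were 78.4% and 2.7%, against 49.2% and 37.7% of all genes. Among 26 p53 regulators 14 were higher and 7 lower, and among 31 excision repair genes 14 and 11. Among 12 translesion genes 3 were higher and 8 lower. Among 10 GADD45 and MAPK genes these counts were 6 and 2, and among 14 sestrin and GATOR genes 7 and 3. With upper-quartile scaling 27 p53 targets were higher and 3 lower. These shares were 73.0% and 8.11%, against 47.6% and 38.8% of all genes. Higher and lower counts were then 14 and 8 for p53 regulators and 14 and 12 for excision repair genes. They were 3 and 9 for translesion genes, 6 and 2 for GADD45 and MAPK genes and 5 and 4 for sestrin and GATOR genes. The log2 fold change turned under upper-quartile scaling and without a scaling factor to 0.25 and 0.35 for Ddb1, 0.08 and 0.17 for Mapk8 and 0.19 and 0.29 for Tsc1, and to 0.05 with no scaling factor for Map2k3. Of 120 alternative values for the 10 genes, 117 kept direction and call. The call of Ddb2 was lost at 0.50 with median of ratios scaling, at 0.52 with DESeq2, and at a false discovery rate of 0.01 (0.67, adjusted p = 0.0123, edgeR); the cause was not tested. Depth limits Gadd45a and Gadd45b most, with 7 to 26 counts in WT libraries. No paired analysis was made because the labels state no pairing of WT and deletion animals. Some WT and deletion mouse numbers lie next to each other, and what that means is not given.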
